A study of Mus musculus with 24 samples.

Results

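Tbx3, Klf4, Klf2, Klf5, Esrrb, Nanog, Tfcp2l1, Zfp42, Prdm14 and Nr5a2 are transcription factor genes of naive pluripotency in mouse embryonic stem (ES) cells. These 10 genes were taken by name from a list of known naive-state regulators, out of 37310 gene entries, and each was found in the deposited tables (Tfcp2l1 under its older symbol Tcfcp2l1). The list was chosen with earlier results of these data known. RNA had been sequenced from ES cells of 6 genotypes with 3 biological replicates each. They were wild type (WT), cells without Smchd1 (Smchd1 KO), cells without Dux (Dux KO), cells without both (Double KO), cells without Tet1, Tet2 and Tet3 (Tet TKO), and cells without the 3 Tet genes and Smchd1 (quad KO). All were grown without feeder cells on gelatin in medium with fetal bovine serum and leukaemia inhibitory factor (LIF). The strain, and whether a genotype stands for several clones, are not given in the sources used here, so p-values measure the spread between these samples.

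Naive pluripotency is the state of the preimplantation epiblast and of mouse ES cells kept in LIF. LIF acts through its receptor, JAK kinases and STAT3, which drives Klf4 and Tfcp2l1, while WNT signals relieve repression of Esrrb by TCF7L1, and Tbx3 is sustained through the kinase pathways downstream of LIF. These inputs meet on NANOG and the core factors OCT4 and SOX2, and the naive factors bind and activate each other's genes. PRDM14 represses FGF signalling and the methyltransferase genes, and cells that lose this network pass to a primed state.

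Promoters are shown first because 9 of the 10 genes moved together in 1 comparison below. The sequence from 250 bases before to 50 bases after the start site was read from RefSeq's mouse table (GRCm38.p6) for 7 of the 10 genes, and 5 of these carried a match to a searched motif. They are Nanog at chr6:122707239-122707538 on the plus strand, Esrrb at chr12:86360867-86361166 on the plus strand, Klf4 at chr4:55532426-55532725 on the minus strand, Klf2 at chr8:72318812-72319111 on the plus strand and Zfp42 at chr8:43306960-43307259 on the minus strand. Each is written 5′ to 3′ on the gene's own strand, and capitals mark the motif matches.
Nanog: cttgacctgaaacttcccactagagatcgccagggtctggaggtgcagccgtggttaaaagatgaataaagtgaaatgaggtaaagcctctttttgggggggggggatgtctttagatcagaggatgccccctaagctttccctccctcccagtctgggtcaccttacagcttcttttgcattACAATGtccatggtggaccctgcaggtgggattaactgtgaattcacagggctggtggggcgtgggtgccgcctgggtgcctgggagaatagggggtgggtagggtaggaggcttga
Esrrb: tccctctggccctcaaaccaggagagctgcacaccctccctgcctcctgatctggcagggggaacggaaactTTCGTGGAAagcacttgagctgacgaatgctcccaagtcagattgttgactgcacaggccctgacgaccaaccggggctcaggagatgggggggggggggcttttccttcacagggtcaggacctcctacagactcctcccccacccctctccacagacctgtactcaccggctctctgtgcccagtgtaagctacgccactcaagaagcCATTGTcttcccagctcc
Klf4: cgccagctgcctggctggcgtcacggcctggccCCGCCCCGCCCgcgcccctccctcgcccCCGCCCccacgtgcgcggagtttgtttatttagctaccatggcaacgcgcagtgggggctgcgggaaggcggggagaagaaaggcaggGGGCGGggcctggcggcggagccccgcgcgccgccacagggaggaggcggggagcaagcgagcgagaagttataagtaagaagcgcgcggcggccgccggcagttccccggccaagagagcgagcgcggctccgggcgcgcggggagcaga
Klf2: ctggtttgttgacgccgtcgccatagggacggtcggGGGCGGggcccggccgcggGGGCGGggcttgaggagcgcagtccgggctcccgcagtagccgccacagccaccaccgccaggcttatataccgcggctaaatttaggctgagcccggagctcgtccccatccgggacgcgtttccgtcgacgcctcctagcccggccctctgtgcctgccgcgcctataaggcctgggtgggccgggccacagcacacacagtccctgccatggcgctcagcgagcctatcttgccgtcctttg
Zfp42: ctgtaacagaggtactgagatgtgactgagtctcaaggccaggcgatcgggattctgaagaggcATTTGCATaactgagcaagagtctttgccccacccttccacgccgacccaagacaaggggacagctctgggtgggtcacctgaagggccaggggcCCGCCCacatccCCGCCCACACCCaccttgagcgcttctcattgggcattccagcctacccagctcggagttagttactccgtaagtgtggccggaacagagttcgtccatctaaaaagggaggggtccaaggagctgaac

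The motifs were searched on both strands. In Nanog the capitals mark the SOX letters ACAATG at position -67 from the start site, which 12.6% of all 32851 mouse promoters of this length hold. In Esrrb they mark the STAT spacing TTCNNNGAA at position -178 (8.3% of promoters) and the SOX letters on the other strand at position 32. Klf4 held 4 GC boxes (GGGCGG, in 35.7% of promoters), of which a pair overlap, and Klf2 held 2. Zfp42 held the octamer ATGCAAAT, the letters read by OCT4, on the other strand at position -186 (1.74% of promoters). It also held 2 GC boxes and, overlapping the second, the KLF box CCACACCC (3.56% of promoters). The windows of Tfcp2l1 and Nr5a2 held none of the searched motifs. The orphan receptor letters TCAAGGTCA (0.423% of promoters), the TFCP2L1 repeat (3.44%) and the T-box letters AGGTGTGA (1.28%) were in none of the 7 windows.

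Libraries held 11.4 to 74.4 gene reads in units of 1e6. Values are CPM (counts per 1e6 counts of an effective library size). A first table holds the Double KO, Dux KO, Smchd1 KO and WT samples and was normalized apart from a second table with Tet TKO and quad KO. Comparisons were therefore made within a table. Smchd1 stood at 203 to 207 CPM in WT, 46.2 to 76.5 CPM in Smchd1 KO and 71.0 to 87.9 CPM in Double KO, and at 151 to 161 CPM in Tet TKO against 12.2 to 40.0 CPM in quad KO. The ES cell marker Pou5f1 (OCT4) was present in every sample, with a lowest value of 364 CPM. The noise ratio sets the squared difference of a pair of libraries against counting error. Different WT replicates had ratios of 1.28 to 1.89 within a run and 2.40 to 2.77 across runs. Repeat runs of the same WT replicate had 2.18 to 2.59. WT replicates within a run thus differed less than repeat runs did, and Tet TKO replicates were also low, at 1.43 to 1.78. Replicates of other genotypes differed more, with a lowest ratio of 3.78 for quad KO, 3.29 for Smchd1 KO, 17.8 for Double KO and 16.6 for Dux KO. Whether WT and Tet TKO replicates were separate cultures was not tested. In 4 samples the median of all genes on a chromosome lay more than 0.3 log2 from the mean of the table: chromosome 6 was low in Smchd1 KO replicate 2 (-0.33), Dux KO replicate 2 (-0.30) and Double KO replicate 3 (-0.34), chromosome 8 was low in Dux KO replicate 3 (-0.42), and chromosome 1 was high in Double KO replicate 3 (0.38). Tfcp2l1, Prdm14 and Nr5a2 are on chromosome 1, Nanog on chromosome 6, and Klf2 and Zfp42 on chromosome 8.

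Quad KO was compared with Tet TKO for the loss of Smchd1 in cells that already lacked the Tet genes. Of the 10 genes, 9 fell in quad KO against Tet TKO and Klf2 alone rose, at an adjusted p under 0.05 with limma. The falls were 5.28-fold for Nanog, 4.84-fold for Tbx3, 4.52-fold for Prdm14, 3.78-fold for Esrrb and 3.35-fold for Klf4. Of all 14920 genes tested, 37.7% passed in either direction, 20.6% as lower and 17.1% as higher. Falls of at least 2-fold were found for 7 of the 10 genes and for 3.14% of all genes tested. Since the 10 genes were chosen with earlier results of these data known, these shares are descriptions. The median log2 change of the 10 genes was -1.65. In bulk RNA, fewer cells with a transcript and less transcript per cell cannot be told apart.

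Klf4, Tbx3 and Tfcp2l1 lie on the LIF side of the network. Klf4 was at 124, 133 and 129.8 CPM in the Tet TKO replicates and at 47.6, 38.6 and 30.1 CPM in the quad KO replicates. Every quad KO sample was below every Tet TKO sample, and the fall was 3.35-fold (log2 change -1.74, SE 0.14, adjusted p = 0.000155, limma). Tbx3, a T-box factor, was at 64.9, 66.5 and 66.1 CPM in Tet TKO and at 13.1, 12.9 and 13.7 CPM in quad KO. Its quad KO replicates lay close together, and it fell 4.84-fold (log2 change -2.27, SE 0.055, adjusted p = 2.67e-06, limma). Tfcp2l1, a grainyhead-related factor, was at 214 to 218 CPM in Tet TKO and at 85.6, 102 and 44.6 CPM in quad KO. It fell 2.95-fold (log2 change -1.56, SE 0.26, adjusted p = 0.00298, limma), with the lowest value in quad KO replicate 3. Reads of the antisense gene Tbx3os1, and of 3 small genes inside Tfcp2l1, could not be told apart from theirs, since the strand setting of the counting is not given in the sources used here.

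Nanog and Esrrb were the members with the widest spread among quad KO replicates together with Tfcp2l1 and Prdm14. Nanog, the homeobox factor at the centre of the network, was at 252, 276 and 268 CPM in Tet TKO and at 61.5, 65.0 and 30.8 CPM in quad KO. It fell 5.28-fold (log2 change -2.40, SE 0.25, adjusted p = 0.00038, limma), and only 64 of the 14920 genes, itself included, had as low a log2 change. Esrrb, an orphan nuclear receptor, was at 180.1, 180.1 and 180.3 CPM in Tet TKO and at 79.9, 48.8 and 27.1 CPM in quad KO. The quad KO replicates differed among themselves by more than for any other member on the log2 scale (SD 0.77), and the fall was 3.78-fold (log2 change -1.92, SE 0.32, adjusted p = 0.00304, limma). With array quality weights the log2 change of Esrrb was -1.19. Of the 50-base words in Nanog, 4.53% occur in other genes, among them its pseudogene Nanog-ps1.

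Prdm14 was the member with the lowest level. It had 9.4, 8.7 and 9.2 CPM in Tet TKO and 2.2, 2.1 and 0.90 CPM in quad KO, a fall of 4.52-fold on the fitted scale, which the pseudocount of 0.5 makes smaller than the ratio of means of 5.31 (log2 change -2.18, SE 0.24, adjusted p = 0.000476, limma). Nr5a2, an orphan nuclear receptor that can stand in for OCT4 in reprogramming, was at 41.2, 40.1 and 40.9 CPM in Tet TKO and at 23.5, 23.9 and 16.0 CPM in quad KO. It fell 1.94-fold (log2 change -0.95, SE 0.14, adjusted p = 0.00172, limma). Zfp42 (REX1), a zinc finger gene widely used as a marker of naive cells, went from 273, 279 and 283 CPM to 137, 117 and 81.9 CPM and fell 2.53-fold (log2 change -1.34, SE 0.16, adjusted p = 0.000694, limma). Of its 50-base words 8.52% occur also in the pseudogene Zfp42-ps1.

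The 3 Klf genes, which encode related zinc finger factors, did not move alike. Klf4 fell as given above, and Klf5 went from 218, 214 and 202 CPM in Tet TKO to 168, 177 and 147 CPM in quad KO, a fall of 1.29-fold (log2 change -0.37, SE 0.070, adjusted p = 0.0052, limma). Klf2 went the other way, from 91.1, 90.3 and 93.1 CPM to 111, 137 and 125 CPM, and rose 1.35-fold (log2 change 0.43, SE 0.073, adjusted p = 0.00303, limma). Groups did not overlap for any of the 10 genes. Among all genes, 28.2% were lower and 25.1% higher without overlap.

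**Figure D1:**
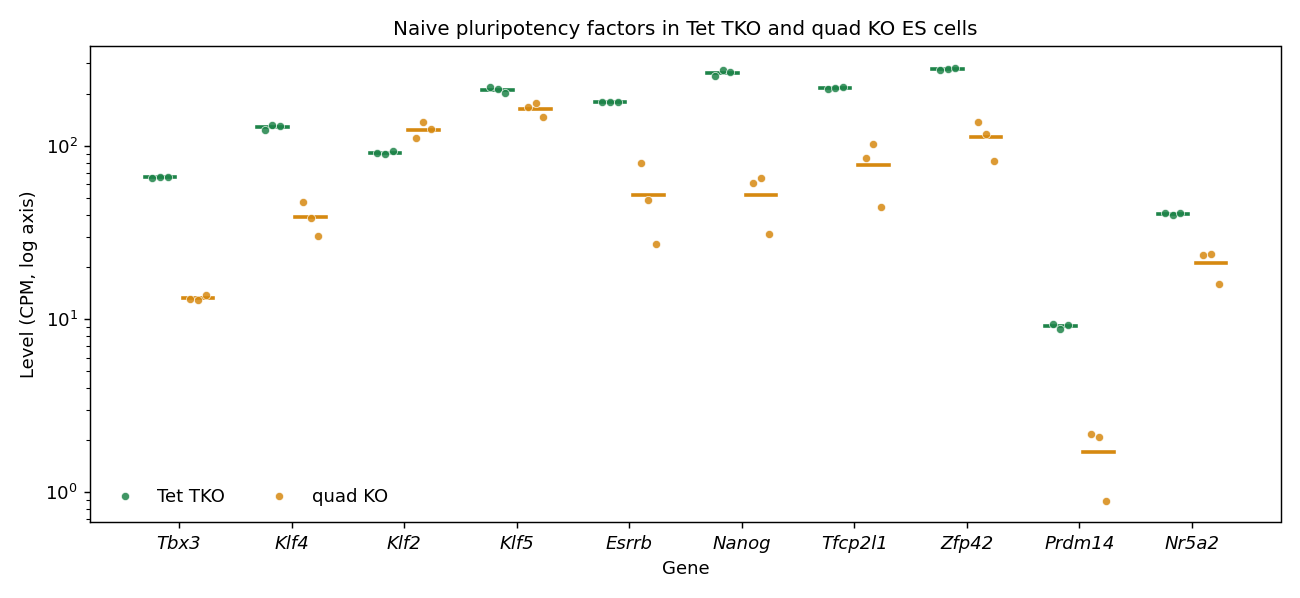
Level of each gene (CPM, log axis) in the 3 Tet TKO and the 3 quad KO samples, with points for samples in replicate order and lines for group means. The quad KO points lie below the Tet TKO points for 9 genes and above them for Klf2, and the third quad KO point is the lowest for 8 of the 10 genes.

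Quad KO replicate 3 was the lowest of its group for 8 of the 10 genes and had the highest remaining Smchd1 level, at 40.0 CPM against 12.2 and 18.1 CPM in the others. All 10 calls held in each of the 15 alternative analyses run, which include leaving out this replicate. Medians of chromosomes 6 and 8 were also lower in quad KO (-0.15 to -0.074 log2 from the mean of the table) than in Tet TKO (0.11 to 0.15). So was that of chromosome X (-0.13 to -0.11 in quad KO and 0.098 to 0.13 in Tet TKO). On chromosome 12, which holds Esrrb, the quad KO medians were -0.067, -0.12 and 0.0945, against 0.045 to 0.065 in Tet TKO. All 10 calls held after chromosome medians were centred. Per length of transcript, Zfp42 (148 CPM per kb) and Nanog (118 CPM per kb) led the order in Tet TKO, and Klf2 (67.3 CPM per kb) and Zfp42 (59.5 CPM per kb), whose ranges overlapped, led it in quad KO. Prdm14 was last in both, at 3.56 and 0.67 CPM per kb. Only Klf4 and Klf5 were neighbours with overlapping ranges in Tet TKO.

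Genes around the naive factors moved less evenly, and the counts below stand against the 37.7% of all genes that passed. Of the core factors, Sox2 fell 1.40-fold (adjusted p = 0.0046, limma), from 360 to 367 CPM to 224 to 295 CPM, while Pou5f1 was at 733 to 740.1 CPM in Tet TKO and 694 to 718 CPM in quad KO and did not pass (adjusted p = 0.158, limma). Of 8 genes of the LIF receptor and JAK-STAT3 chain, 4 fell and 2 rose (median log2 change -0.28). Lifr, the LIF receptor, fell 2.18-fold, the feedback inhibitor Socs3 1.66-fold and Stat3 1.36-fold, and the kinase gene Pim1 rose 1.45-fold. Of 15 other genes of the naive state, 6 fell and 2 rose (median -0.13), with falls of 4.15-fold for Jam2, a junction protein, 3.54-fold for Tcl1, an AKT cofactor, 3.29-fold for Nr0b1 (DAX1) and 1.68-fold for Fgf4.

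A list named for repressors of naive genes and exit factors held 9 genes, not all of which are either. Id1 and Id3 are neither, and Folr1 encodes a folate receptor. Of these 9 genes, 5 fell and 1 rose (median log2 change -0.14). The only rise past the test was that of Id1. Folr1 fell 1.57-fold, Tcf7l1, the WNT-relieved repressor of Esrrb, 1.32-fold and Id3 1.45-fold, and Id1 rose 1.27-fold. Of 9 primed-state genes past the filter, of 10 listed, 3 rose and 2 fell (median 0.19), among them Sall2 (up 1.496-fold), Dnmt3b (up 1.14-fold), Sox3 (up 1.45-fold) and Zic5 (down 1.51-fold). The primed markers Fgf5 (log2 change 0.74, adjusted p = 0.0655, limma) and Otx2 (log2 change 0.20, adjusted p = 0.57, limma) did not pass. Of 9 WNT and FGF genes, 2 rose and 2 fell (median 0.0022).

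Markers of other cell types moved in the same comparison. Of 5 trophoblast markers, 4 passed the filter and all 4 rose, Cdx2 by 2.96-fold, and their summed level was 98.4 to 106 CPM in Tet TKO and 149 to 268 CPM in quad KO. Most of each sum was the keratin gene Krt8, at 71.6 to 77.3 CPM in Tet TKO and 98.6 to 178 CPM in quad KO. Elf5 did not pass the filter. Of 5 mesoderm markers 4 were tested and 3 rose, of 6 fibroblast markers 5 were tested and 3 rose, and of 7 endoderm markers 4 were tested, 1 rose and 2 fell, with Ttr at 0 in both genotypes. Hnf4a reached the filter level of 0.5 CPM only in Tet TKO (1.19 to 1.52 CPM, against 0 to 0.13 CPM in quad KO). Col3a1 reached it only in quad KO (0.53 to 1.18 CPM, against 0.14 to 0.43 CPM in Tet TKO). For these genes the filter favoured a change in that direction. Of 4 neuroectoderm markers in the table, 3 were tested, 2 rose and 1 fell. Quad KO replicate 3, the lowest of its group for 8 of the 10 naive factors, had the lowest trophoblast sum of its group, a value of 1 library. The part of markers of other cell types in the falls of the naive factors was not tested.

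**Figure D2:**
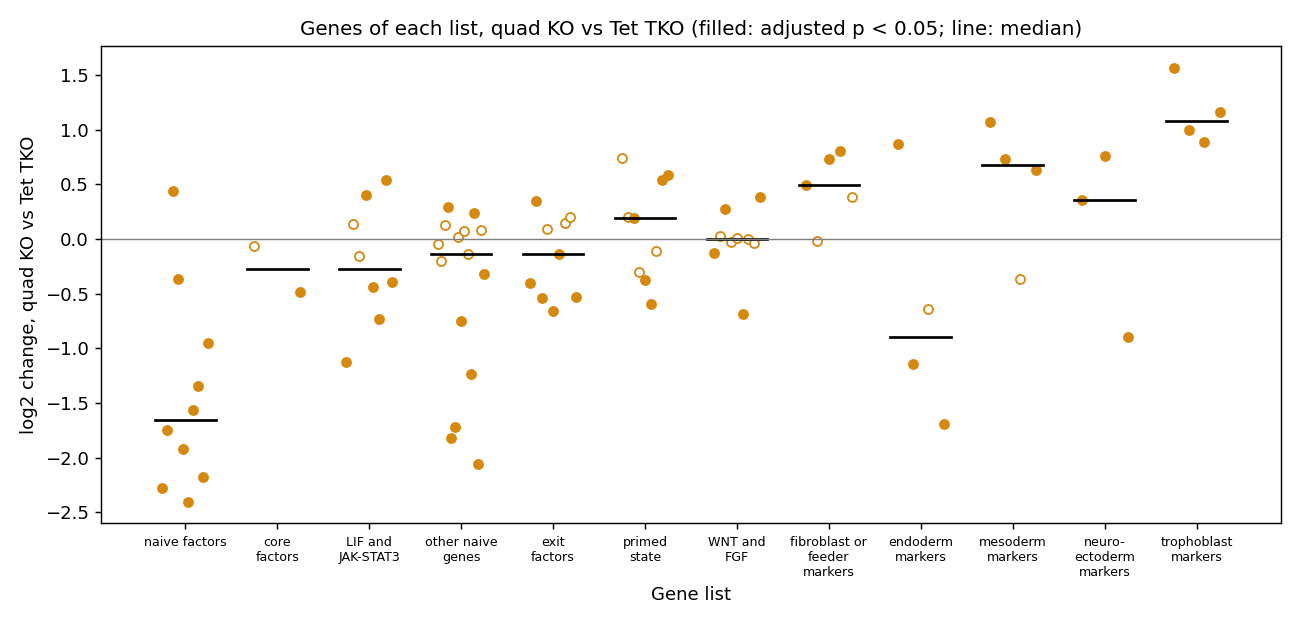
The log2 change in quad KO against Tet TKO of each tested gene, by list, with filled points for adjusted p under 0.05 and a line for the median. The naive factors have a median of -1.65, against -0.13 for other genes of the naive state and 0.19 for the primed state.

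In the first table none of the 10 genes passed in any of the 6 comparisons, with limma or with edgeR on recovered reads. The background was low in all of them: 0.889% of 16200 genes passed in Smchd1 KO vs WT, 3.98% in Dux KO vs WT, 1.57% in Double KO vs WT, 0.0123% in Double KO vs Dux KO, 4.38% in Double KO vs Smchd1 KO and 0.512% in the test of whether the Smchd1 effect differed between Dux KO and WT cells. Unadjusted p-values under 0.05 were found for 2 members in Smchd1 KO vs WT (Klf4 and Klf5), 0 in Dux KO vs WT, 2 in Double KO vs WT (Klf4 and Esrrb), 3 in Double KO vs Dux KO (Tbx3, Klf4 and Nanog), 1 in Double KO vs Smchd1 KO (Nanog) and 2 in the difference of effects (Klf5 and Nanog). A p that misses the threshold does not show that levels were equal. The spread of a gene was shared over all genotypes of the table, those outside a comparison included. Fitting only the genotypes compared, 4 of the 10 genes and 42.3% of all genes passed in Smchd1 KO vs WT. Comparisons with WT share the WT samples.

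Klf5 and Klf4 stood farthest from WT in Smchd1 KO. Klf5 was at 170.4, 160 and 169 CPM in WT and at 82.0, 94.1 and 80.0 CPM in Smchd1 KO, with no overlap. The log2 change was -0.96 (SE 0.28, adjusted p = 0.137, limma). In Dux KO it was at 186, 86.4 and 101 CPM and in Double KO at 176, 84.5 and 111 CPM, so that replicate 1 of each lay above all WT samples and the other replicates below them. The Smchd1 effect on Klf5 was 0.97 log2 higher in Dux KO than in WT cells (SE 0.39, adjusted p = 0.231, limma). Without Dux KO replicate 1 this difference passed (1.30 log2, adjusted p = 0.0473, limma), as did 4.15% of all genes. That fit left out the Dux KO sample with the highest Klf5 and kept Double KO replicate 1, at 176 CPM.

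Klf4 was at 190 to 194 CPM in WT. It was at 138, 134 and 101 CPM in Smchd1 KO (log2 change -0.64, SE 0.19, adjusted p = 0.141, limma) and at 114, 107 and 113 CPM in Double KO (log2 change -0.79, SE 0.19, adjusted p = 0.0554, limma). Both groups lay wholly below WT. Without Double KO replicate 3, Klf4 passed in Double KO vs WT (adjusted p = 0.0293, limma), as did Esrrb (log2 change -0.72, adjusted p = 0.0152, limma) and Nanog (log2 change -0.71, adjusted p = 0.0418, limma), and 18.6% of all genes passed. Dux KO samples spread from 118 to 218 CPM and overlapped WT.

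Of the 10 genes, 4 (Klf4, Klf5, Zfp42 and Nr5a2) were below WT in every Smchd1 KO sample, against 29.6% of all genes, and none was above WT in every sample (28.2% of all genes). Zfp42 was at 479 to 509 CPM in WT and at 364, 442 and 324 CPM in Smchd1 KO, and Nr5a2 at 66.3 to 71.3 CPM and 63.2, 58.1 and 51.6 CPM. In Dux KO vs WT, Tbx3, Nanog and Tfcp2l1 were higher in every Dux KO sample (3 of 10, against 16.5% of all genes), and none was lower without overlap (23.1% of all genes). Tbx3 was at 98.2 to 102 CPM in WT and 194, 136 and 113 CPM in Dux KO, and Tfcp2l1 at 243 to 246 CPM and 357, 287 and 344 CPM. In Double KO vs WT, Klf4 and Esrrb were lower without overlap (2 of 10, against 21.0% of all genes), and none was higher without overlap (15.3%). Esrrb was at 483 to 489 CPM in WT and 245, 356 and 467 CPM in Double KO.

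Double KO samples differed widely from each other. Their levels overlapped those of Smchd1 KO for all 10 genes, whereas 16.7% of all genes were lower and 13.0% higher without overlap in that comparison. Nanog was at 181, 330.3 and 427 CPM in Double KO, against 432 to 480 CPM in Dux KO, 373 to 508 CPM in Smchd1 KO and 395 to 412 CPM in WT. Nanog and Klf4 were below Dux KO in every Double KO sample (2 of 10, against 3.1% of all genes; none was above, against 3.05%), with log2 changes of -0.61 (SE 0.24, adjusted p = 0.425, limma) and -0.51 (SE 0.19, adjusted p = 0.385, limma). Prdm14 was at 6.9, 19.3 and 24.95 CPM in Double KO and 20.9 to 22.7 CPM in WT. Double KO replicate 1 had the lowest Nanog, Esrrb, Prdm14, Tfcp2l1 and Nr5a2 of all 12 samples. It also had the highest trophoblast marker sum, 373 CPM against 76.3 and 74.7 CPM in replicates 2 and 3, and an endoderm sum of 80.7 CPM against 15.3 and 9.27 CPM. Most of its trophoblast sum was the keratin gene Krt8, at 302 CPM. Krt7 was at 43.1 CPM, Hand1 at 19.1 CPM, Cdx2 at 8.66 CPM and Elf5 at 0.062 CPM. The part of these markers in the naive factor levels of this replicate was not tested. In all other samples of the first table the trophoblast sum was at most 97.9 CPM.

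**Figure D3:**
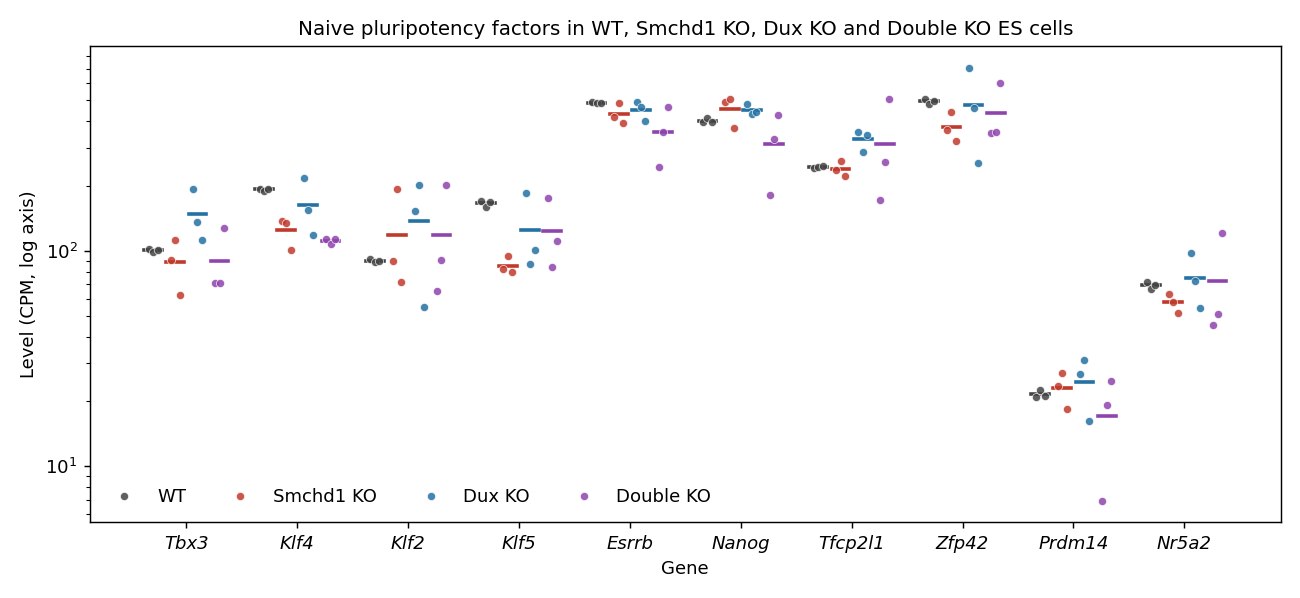
Level of each gene (CPM, log axis) in the 12 samples of the first table, with points for samples in replicate order and lines for group means. WT points lie close together, whereas Klf2 runs from 55.0 to 202 CPM in Dux KO and Prdm14 from 6.9 to 24.95 CPM in Double KO.

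**Figure D4:**
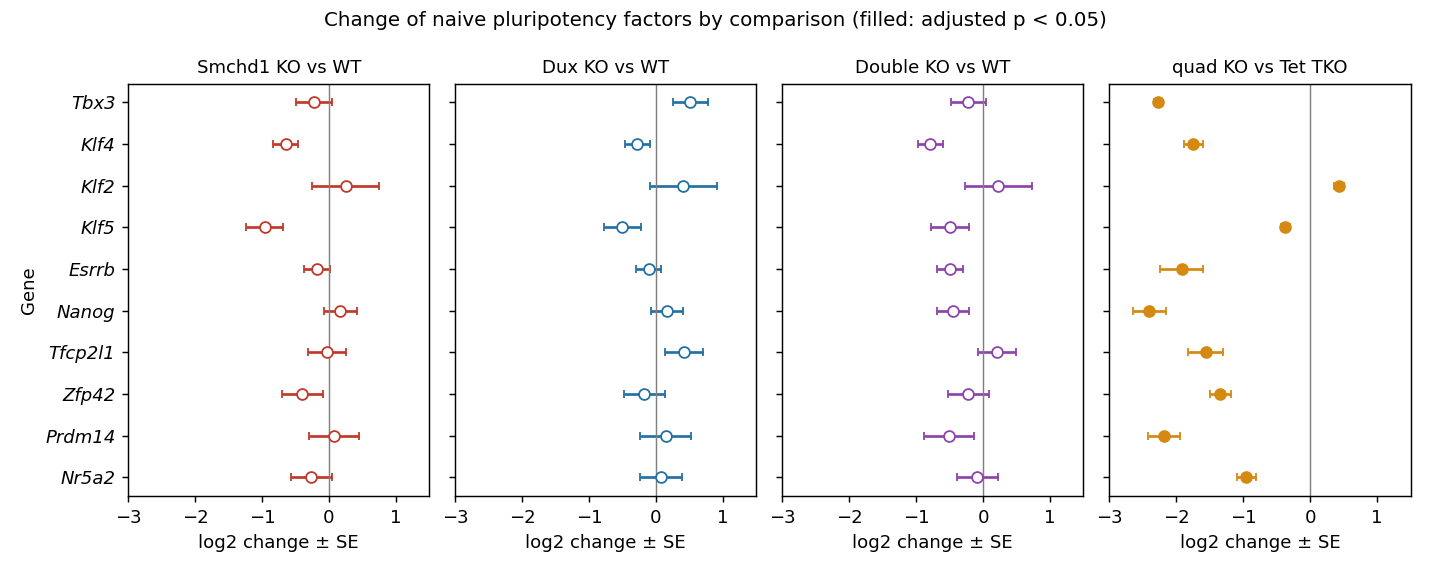
Log2 change with its SE for each gene in 4 comparisons, filled where the adjusted p was under 0.05. No point is filled in the comparisons with WT, and all 10 are filled in quad KO vs Tet TKO.

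Klf2, which rose in quad KO, varied with the median of chromosome 6 in the first table although it lies on chromosome 8. It was at 194 CPM in Smchd1 KO replicate 2, 202 CPM in Dux KO replicate 2 and 201 CPM in Double KO replicate 3, which are the 3 samples with a low chromosome 6 median, and at 55.0 to 153 CPM in the other 9. Pearson's r of Klf2 with the chromosome 6 median was -0.92 over these 12 samples, a description of a pair picked after the values were seen. Zfp42, on chromosome 8, had its lowest value of the table, 256 CPM, in Dux KO replicate 3, in which chromosome 8 was low. Tfcp2l1 (505 CPM) and Nr5a2 (121 CPM), on chromosome 1, had their highest values in Double KO replicate 3, in which chromosome 1 was high, but Prdm14, also on chromosome 1, did not (24.95 CPM, against 31.2 CPM in Dux KO replicate 2). Without the 4 shifted samples, 3 of the 10 genes passed in Smchd1 KO vs WT (17.0% of all genes), 4 in Dux KO vs WT (33.8%) and 5 in Double KO vs WT (41.7%), in a fit in which Dux KO has a single sample that is assumed to vary like the other groups.

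**Figure D5:**
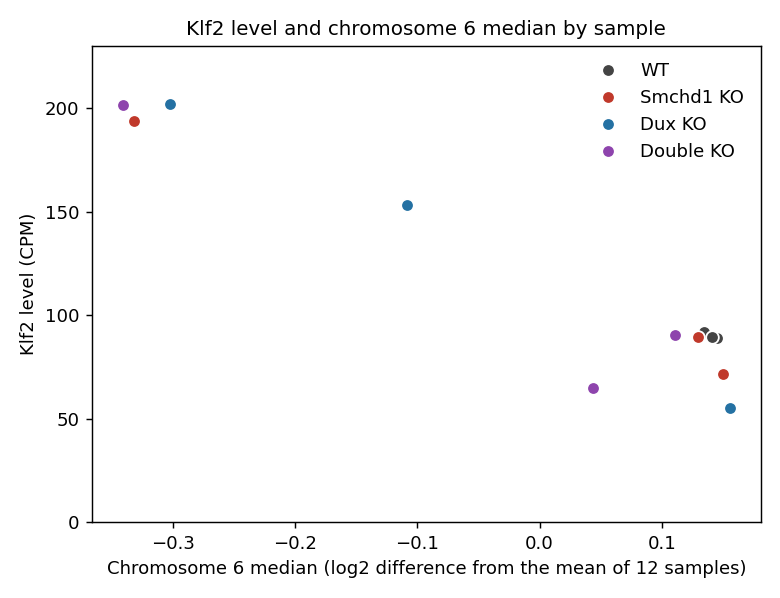
Klf2 level (CPM) against the median log2 difference of chromosome 6 genes from the mean of the table, for each of the 12 samples of the first table. The 3 samples with medians from -0.34 to -0.30 have 194 to 202 CPM, and WT samples lie at 0.13 to 0.15 and 89.1 to 91.7 CPM.

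The naive factors also spread more than other expressed genes within 4 of the 5 knockout genotypes, Tet TKO being the exception. The median SD of log2 values among replicates was 0.58 for the 10 genes and 0.27 for the 9558 genes over 10 CPM in Double KO, 0.43 and 0.25 in Dux KO, 0.23 and 0.0945 in Smchd1 KO, and 0.35 and 0.0949 in quad KO. It was 0.0297 and 0.0328 in WT, and 0.0249 and 0.0378 in Tet TKO. For Tet TKO and quad KO the genes over 10 CPM numbered 9070, and Prdm14 was itself under 10 CPM in both. These medians are descriptions of 3 samples a genotype.

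Most of the 10 genes varied in the same direction over the 12 samples of the first table, with Klf5 apart from several others. Of their 45 pairs, 41 had a positive Pearson's r (91.1%, median 0.57), against 52.6% of all pairs among the 9558 genes over 10 CPM (median 0.036). These shares are descriptions, since the set was chosen with earlier results of these data known. The 4 negative pairs all held Klf5, with Nanog (-0.30), Prdm14 (-0.29), Klf2 (-0.12) and Tfcp2l1 (-0.10). Nanog and Prdm14 had an r of 0.90, Esrrb and Prdm14 of 0.90 and Esrrb and Nanog of 0.88, over samples that share the table, the genotypes and the chromosome shifts. The gene outside the list most like Nanog was Fig4 (r 0.98), that most like Prdm14 was Prdm1, of the same gene family, (r 0.97), and that most like Klf5 was Epha2 (r 0.97). Rbbp5 was most like Nr5a2 (r 0.97) and Usp21 most like Tfcp2l1 (r 0.95), on chromosome 1 as those genes are, and Agtrap, most like Klf4 (r 0.95), lies on chromosome 4 as Klf4 does. For the others they were Gm12588 for Tbx3, 5330417C22Rik for Klf2 and Gjc1 for Zfp42 (r 0.95 each) and Psma8 for Esrrb (r 0.96). Each is the highest r among all genes past the filter over only 12 samples, so a high value is no sign of a link. Links between these genes and the naive factors were not tested.

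Some genes around the network passed in the first table where the naive factors did not. In Double KO vs Smchd1 KO, Socs3 fell 2.01-fold, Fgf4 2.03-fold, Tdgf1 1.98-fold and Sox3 2.23-fold, and Tcf7l1 rose 1.65-fold and Fgfr2 2.60-fold (adjusted p = 0.0168 to 0.0486, limma). In Dux KO vs WT the ES cell marker Utf1 fell 1.68-fold (adjusted p = 0.0311, limma). It was the only 1 of 5 ES cell markers to pass there, with 2 log2 changes positive and 3 negative. Of markers of other cell types, Hnf4a (endoderm) was higher by 2.76-fold in Smchd1 KO than in WT (adjusted p = 0.0227, limma). Hnf4a was the only 1 of 5 tested endoderm markers to pass there, with 4 log2 changes positive and 1 negative. Col3a1 (fibroblast) rose by 2.26 on the log2 scale in Double KO vs WT (adjusted p = 0.0183, limma). Col3a1 was near the floor, at 0.27 to 0.28 CPM in WT and 2.3 to 4.3 CPM in Double KO. It was the only 1 of 6 fibroblast markers to pass in Double KO vs WT, with 5 log2 changes positive and 1 negative. In Double KO vs Smchd1 KO, Col3a1 rose 3.42-fold, Nes (neuroectoderm) rose 2.41-fold and Hnf4a fell 2.499-fold, and the difference of the Smchd1 effect (Dux KO minus WT cells) was -2.13 log2 for Hnf4a and 2.10 log2 for Nes (adjusted p = 0.0331 and 0.0367, limma). Col3a1, Nes and Hnf4a were each the only call of their list in Double KO vs Smchd1 KO. Log2 changes there were 4 positive and 2 negative among fibroblast markers. They were all positive among the 3 tested neuroectoderm markers and all negative among the 5 tested endoderm markers. The part of these markers in the naive factor levels was not tested. Per length, WT levels ran from 263 CPM per kb for Zfp42, 179 for Nanog and 80.3 for Esrrb down to 8.42 for Prdm14, and no neighbours in that order overlapped.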

How the data were processed

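Each deposited value is a normalized signal of a gene (CPM by its name), which the authors made with Trim Galore, STAR 2.5.1 and limma 3.38.2 on build mm9, per the submitters' processing notes. The read counter, annotation release and filters are not given in the sources used here. Column totals ran from 906871 to 1054029, so CPM refers to an effective library size. Below 200 reads, 100% of a library's values were whole reads to a tolerance of 0.1 read. The labels' 2 technical runs of WT and Smchd1 KO were averaged. The numbers of the Smchd1 KO columns could not be tied by name to the labels' replicates, and these columns were joined into 3 pairs by their lowest noise ratio (1.76 to 2.17 within, 3.29 to 13.5 between), and its replicates are numbered by column order. The second table holds 3 per-sample columns under a WT name that were not used.

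The filter kept genes that reached 0.5 CPM in 3 or more samples of a table (16200 and 14920 genes), and all 10 members passed. Log2(CPM + 0.5) was fitted per table in R 4.3.3 with limma 3.58.1, with an intensity trend and 1 mean per genotype. Tests are two-sided with Benjamini-Hochberg adjustment over all genes of a comparison. Fold changes are on this scale. edgeR 4.0.16 was run on recovered reads as an alternative. The procedure was tested on simulated data. Members and lists were chosen with earlier results of these data known. All members are named, and of other lists at most 4 genes past the test per comparison, by smallest adjusted p. Fgf5 and Otx2, which did not pass, and genes given beside a result were named after their values were seen. Chromosomes and lengths are from GENCODE annotation of GRCm38, matched by Ensembl ID.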

Additional observations from a re-analysis of the deposited data

How the results depend on the processing

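In quad KO vs Tet TKO all 10 calls held in all 15 alternatives, the replicate block (10 genes) included. In the first table, where no member passed, counts of the 10 moved as follows, with the share of all genes that passed in brackets. With array quality weights 7 passed in Smchd1 KO vs WT (57.4%), 2 in Dux KO vs WT (39.7%), 2 in Double KO vs WT (15.1%), 1 in Double KO vs Smchd1 KO (16.5%) and 2 in the difference of effects (13.8%). Fitting only the genotypes compared gave 4 in Smchd1 KO vs WT (42.3%) and 1 in Double KO vs WT (1.62%), and technical run 1 alone gave 1 in Double KO vs WT (3.14%). Without the 4 shifted samples 3 passed in Smchd1 KO vs WT (17.0%), 4 in Dux KO vs WT (33.8%), 5 in Double KO vs WT (41.7%), 7 in Double KO vs Dux KO (20.8%) and 3 in the difference of effects (10.4%). Leaving out a replicate gave 0 to 3 in Double KO vs WT (3 without Double KO replicate 3, 18.6%), 0 to 2 in Double KO vs Smchd1 KO (2 without Double KO replicate 3, 15.0%) and 0 to 1 in the difference of effects (1 without Dux KO replicate 1, 4.15%). The cause was not tested.

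Same-numbered samples did not all deviate together (r from -0.13 to 0.47 between WT, Dux KO and Double KO, and -0.0299 to 0.0166 between Tet TKO and quad KO), so the numbers were not taken as pairs. With the replicate block, 1 member passed in Double KO vs WT (Klf4, log2 change -0.79, adjusted p = 0.0438; 4.08% of all genes), 0 in Dux KO vs WT and 0 in Double KO vs Dux KO. No paired analysis was possible because the numbers of the Smchd1 KO columns could not be tied by name to the labels' replicate numbers, for Smchd1 KO vs WT, Double KO vs Smchd1 KO and the difference of effects.

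Directions that turned were all of log2 changes that had not passed. Without the shifted samples, Klf2 (-0.17) and Prdm14 (-0.0506) turned in Smchd1 KO vs WT, Klf4 (0.18), Klf5 (0.16), Esrrb (0.0185) and Zfp42 (0.52, past the test at an adjusted p of 0.00521) in Dux KO vs WT, and Klf2 (-0.23) and Tfcp2l1 (-0.21) in Double KO vs WT. Quantile normalization turned Tfcp2l1 in Smchd1 KO vs WT (0.0905), Esrrb (0.0869) and Zfp42 (0.0297) in Dux KO vs WT and Nr5a2 in Double KO vs WT (0.0107). Centring turned Zfp42 (0.0339) and Nr5a2 (-0.0339) in Dux KO vs WT, array weights Klf2 (-0.0315) and Tfcp2l1 (-0.0394) in Double KO vs WT, and edgeR Nr5a2 in Double KO vs WT (0.0988). Leaving out a replicate gave, in Smchd1 KO vs WT, -0.41 to 0.0048 for Tbx3, -0.17 to 0.55 for Klf2, -0.0897 to 0.0295 for Tfcp2l1 and -0.0506 to 0.22 for Prdm14; in Dux KO vs WT, -0.52 to 0.21 for Zfp42, -0.0464 to 0.41 for Prdm14 and -0.14 to 0.29 for Nr5a2; and in Double KO vs WT, -0.23 to 0.58 for Klf2, -0.21 to 0.56 for Tfcp2l1, -0.87 to 0.0229 for Prdm14 and -0.53 to 0.18 for Nr5a2. Counts over all genes ranged over the alternatives from 51 to 9292 in Smchd1 KO vs WT (144 as reported) and from 3541 to 10792 in quad KO vs Tet TKO (5619 as reported).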
